A study of Sus scrofa with 7 samples.

Results

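The genes described here are transcripts that type I interferon induces in most cells, examined in pig heart muscle after a myocardial infarction. They were taken from a list of 38 symbols. Symbols were matched exactly to the deposited table, each gene was represented by its transcript row of highest mean across the 7 libraries, and a gene was tested when at least 3 libraries held 10 or more normalized counts. A normalized count is a read count divided by a factor for the depth of its library. DDX58 and RIGI are 2 names of 1 gene, found as DDX58. Of the 38 symbols, 35 matched and 34 of these were tested, among 15652 genes tested of 20638 in all. OASL did not pass the filter, and SAMD9 and IFIT5 matched no symbol and were not analysed under those names.

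The animals were male farm pigs whose left circumflex artery territory had been infarcted 14 weeks earlier, and the tissue was anteromidventricular myocardium. All had received an AAV5 vector, so no group lacked a vector. In the 4 libraries labelled S100a1 the vector delivered the human S100A1 sequence, whose protein binds calcium in cardiomyocytes. In the 3 labelled hrLuc it delivered luciferase, a reporter enzyme. The titles name each library as a pig of its own, and the labels give no promoter of the vectors, no age and no batch. Each fold change is S100a1 over hrLuc on the log2(value + 0.5) scale with its standard error.

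Type I interferons are secreted when a cell senses foreign or misplaced nucleic acid. They bind the receptor made of IFNAR1 and IFNAR2, whose kinases JAK1 and TYK2 phosphorylate STAT2, which joins IRF9 in a factor that enters the nucleus and switches on a large set of genes. The products sense viral RNA, block its translation, degrade it, or tag proteins with the ubiquitin-like ISG15. In the heart, cardiomyocytes, fibroblasts, endothelial cells and resident leukocytes can all respond, and infarction is known to raise such genes in infiltrating macrophages. In bulk tissue, more responding cells and more RNA per cell cannot be told apart.

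Libraries held 28651643 to 38376242 reads over 1 row per gene, and TTN, the titin gene, took 7.98% to 11.4% of them. All 8 cardiomyocyte markers were tested, with summed normalized counts of 4291687 to 5790633, so the tissue carried the heart muscle markers its label implies. The lowest of these sums was that of hrLuc replicate 1 and the highest that of S100a1 replicate 1. The pig S100A1 gene stood at 6568 to 9125 in hrLuc and 4429 to 6804 in S100a1, but the delivered sequence was human, so this does not check the labels. 1 library stood apart in the genes described here. In hrLuc replicate 1 their mean log2 level was 0.82 above the mean of the 7 libraries, whereas hrLuc replicate 3 was 0.19 above it and hrLuc replicate 2 was 0.38 below it (-0.38). Fold changes are therefore also given without hrLuc replicate 1.

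All 34 genes had a lower mean log2 level in the libraries labelled S100a1, with a median fold change of -0.32, but none passed the test. In limma 0 of 34 had an adjusted p under 0.05, where 0.0128% of all genes tested passed. BST2 was the 1 member with an unadjusted p under 0.05 and a lower level, where 4.57% of all genes met that rule. A negative fold change was found in 56.5% of all genes, and their median was -0.02. Without hrLuc replicate 1 the members' median was -0.03, 19 of 34 stayed negative against 55.6% of all genes, and 0 had an unadjusted p under 0.05 with a lower level, against 2.43% of all genes. In the other direction, without hrLuc replicate 2 the median was -0.57. The size of the group difference thus changed with the luciferase hearts that entered it, and for 15 members the direction did too.

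**Figure D1:**
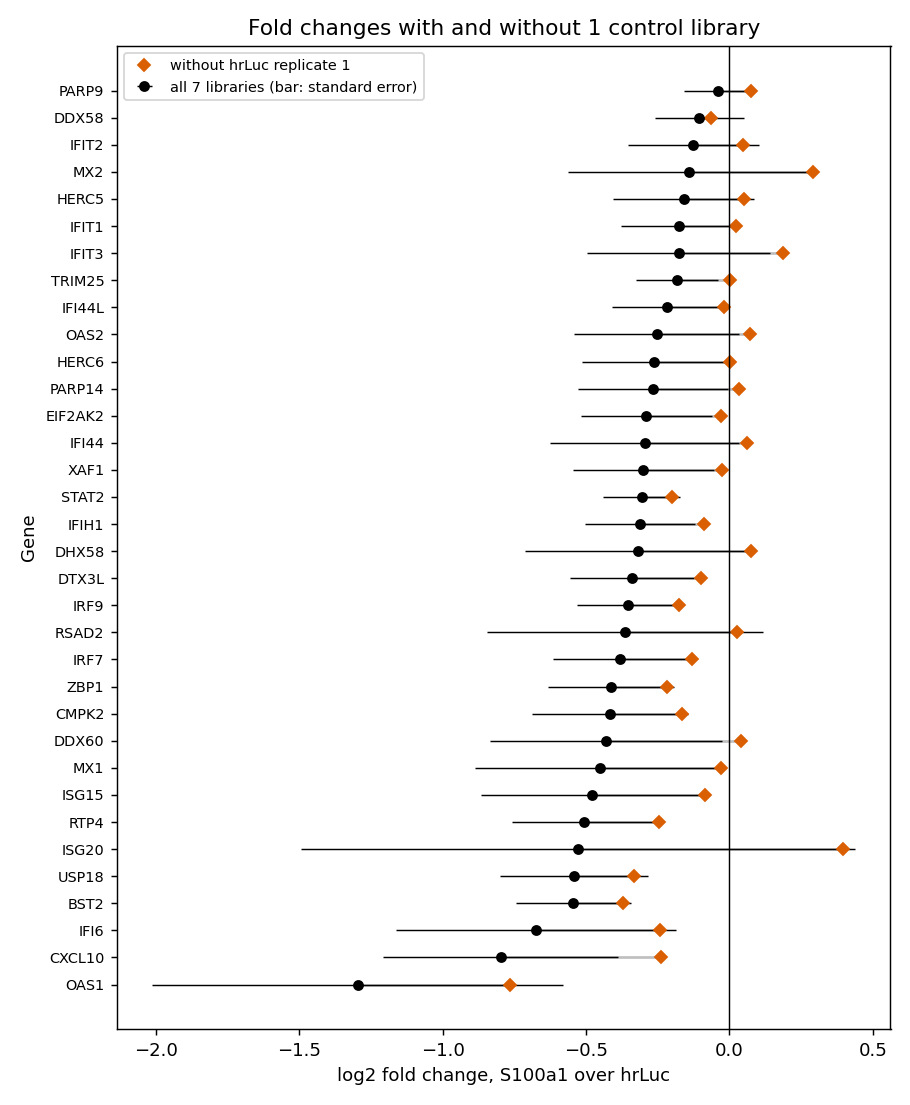
Each row is 1 gene, ordered by fold change. The horizontal axis is the log2 fold change of S100a1 over hrLuc. Black points with standard error bars use all 7 libraries and lie below 0 for all 34 genes. Orange diamonds leave out hrLuc replicate 1, and 15 of them lie above 0.

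No member passed in the other fits either. In the authors' deposited table all 35 matched genes had a negative log2 fold change, and 0 of the 34 kept rows had an adjusted p under 0.05, against 0.729% of the genes tested that had a value there. From the recovered read counts, at an adjusted p under 0.05, edgeR called 0 members and 0.0128% of all genes. DESeq2 called 0 members and 0.575% of all genes. The smallest adjusted p of any member was 0.556 in limma, 0.527 in edgeR and 0.330 in DESeq2. The median standard error of a member's fold change was 0.25, against 0.12 for all genes tested, so these genes were measured with a wider spread between hearts than most.

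The members differed more among the luciferase hearts than most genes did. The distance from the highest to the lowest of the 3 hrLuc libraries had a median of 1.01 on the log2 scale over the 34 genes, against 0.28 over all genes tested. It lay above the 90th percentile of all genes (0.95) in 19 of 34. In the 4 S100a1 libraries the median range was 0.74, against 0.34 over all genes, and the hrLuc range was the wider of the 2 in 28 of 34 members but in 39.7% of all genes. Without hrLuc replicate 1 the hrLuc range fell to 0.49, a range over 2 libraries instead of 3.

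The 3 hrLuc libraries kept nearly 1 order across the genes. Of the 3 hrLuc libraries, replicate 1 was the highest for 33 of 34 members and replicate 2 the lowest for 32 of 34. Over all genes tested the first held for 32.8% and the second for 6264 of 15652. Over the 7 libraries hrLuc replicate 1 was the highest for 31 members, against 18.4% of all genes, and the 3 exceptions were DDX58, IFIT2 and HERC5. Among the S100a1 libraries replicate 3 was the highest for 24 members and replicate 2 for 8, against 22.4% and 30.8% of all genes. Replicate 1 was the lowest of them for 19 and replicate 4 for 11, against 33.0% and 25.1%. In 22 of 34 members both S100a1 replicates 2 and 3 lay above both replicates 1 and 4, a pattern held by 23.2% of all genes. For 24 of 34 members hrLuc replicate 2 lay below the median of the S100a1 libraries, against 50.2% of all genes.

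**Figure D2:**
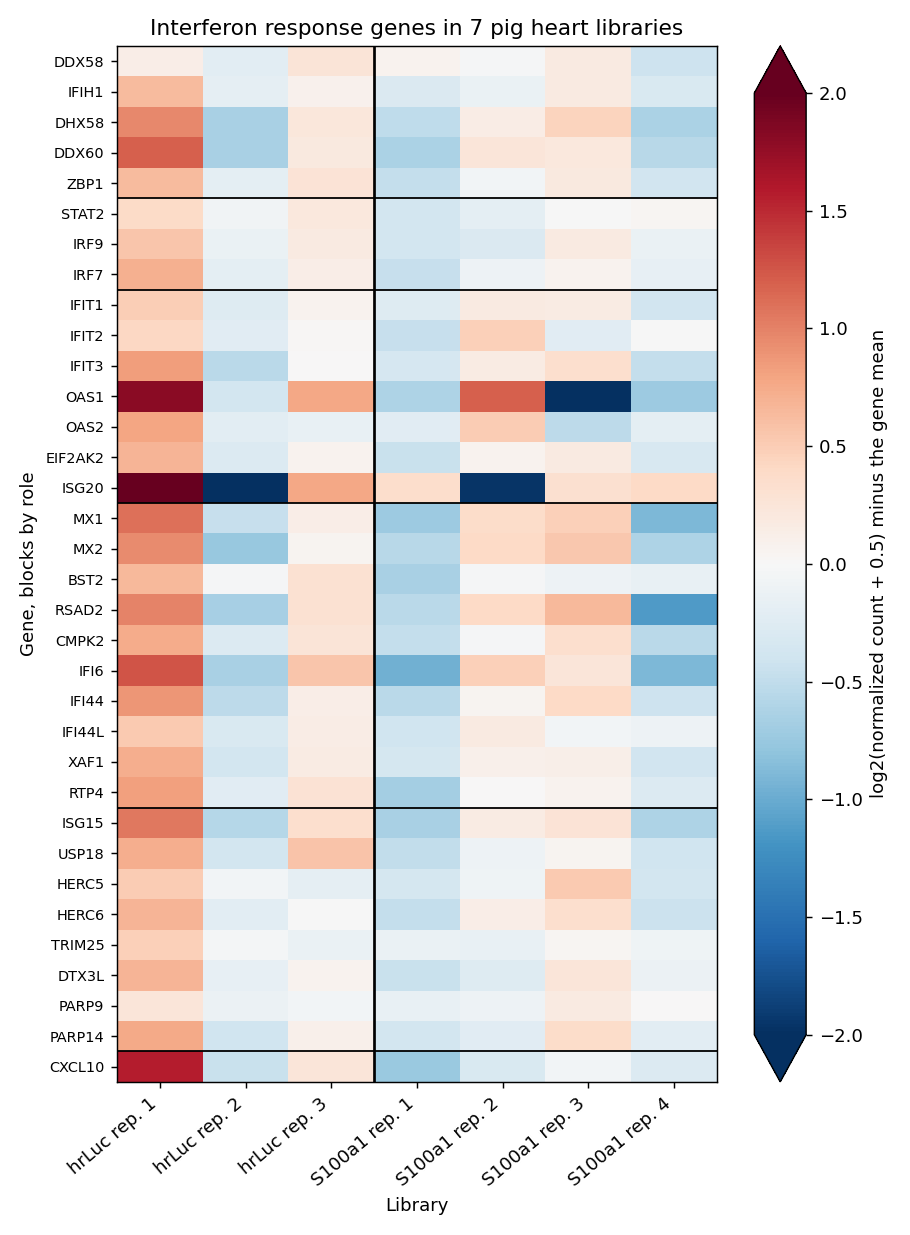
Rows are the 34 genes tested, in blocks by role (sensors, signalling factors, RNA effectors, membrane and other effectors, the ISG15 system, CXCL10), and columns are the libraries, with the line between hrLuc and S100a1. Colour is the log2 level minus the gene's mean over 7 libraries, from -2 to 2. The hrLuc replicate 1 column is red in every row, and OAS1 and ISG20 carry the darkest cells.

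**Figure D3:**
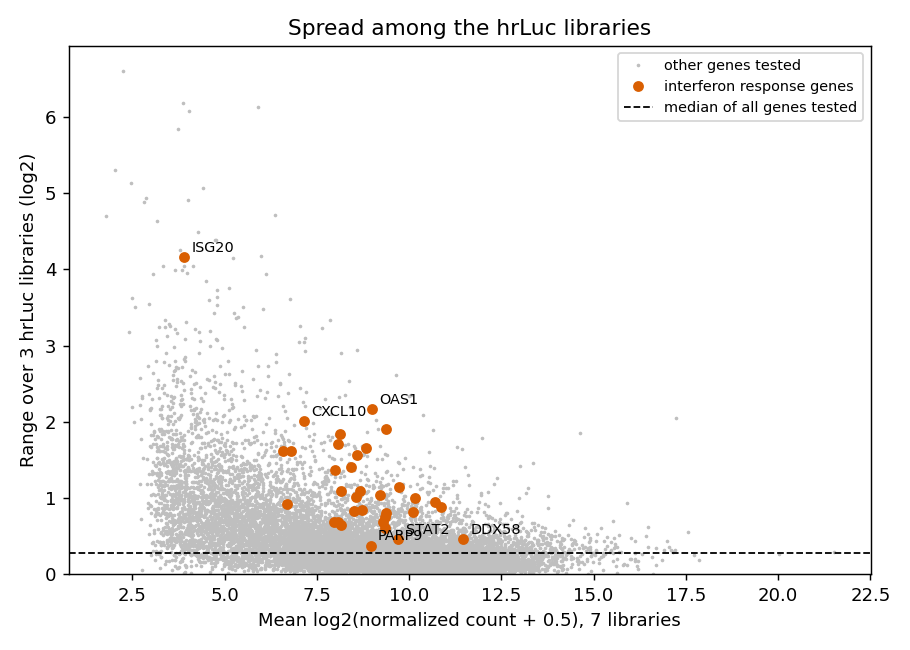
Each point is 1 of the 15652 genes tested, with the interferon response genes in orange. The horizontal axis is the mean log2 level and the vertical axis the log2 range over the 3 hrLuc libraries. The orange points lie above the dashed median of all genes, 0.28, and reach 4.16 at ISG20.

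The sensors of foreign nucleic acid had a median fold change of -0.32, and -0.07 without hrLuc replicate 1, with 0 of 5 past the threshold. IFIH1 (MDA5, a helicase that senses long double-stranded RNA, chromosome 15, 68930998 to 68985145 on Sscrofa11.1) stood at 1029, 591 and 704 normalized counts in hrLuc, here and below in the order of the replicate numbers. The S100a1 libraries, likewise in order, held 546, 608, 758 and 541. The groups overlapped, with a fold change of -0.31 ± 0.19 (adjusted p = 0.658, limma) and -0.09 without hrLuc replicate 1. ZBP1, a sensor of Z-form nucleic acid that can start cell death, was at 564, 316 and 441 in hrLuc and at 262, 349, 418 and 279 in S100a1. Its fold change was -0.41 ± 0.22 (adjusted p = 0.635, limma), and -0.22 without hrLuc replicate 1. The lowest ZBP1 value was that of S100a1 replicate 1, and hrLuc replicate 2 lay below 2 of the S100a1 libraries. DHX58 (LGP2, a regulator of the other helicases) and DDX60 had wider spreads. DDX60 was at 634 in hrLuc replicate 1, 177 in replicate 2 and 317 in replicate 3, and at 178 to 329 in S100a1. The fold changes were -0.43 for DDX60 and -0.32 for DHX58, and both turned positive without hrLuc replicate 1 (0.04 and 0.07).

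DDX58 (RIG-I, the sensor of short RNA with a triphosphate end, chromosome 10, 33891720 to 33976151) looked unlike the other members in the row that the rule kept. That row had 3104, 2439 and 3353 normalized counts in hrLuc and 2963, 2779, 3207 and 2110 in S100a1, so hrLuc replicate 3 and not replicate 1 was the highest (fold change -0.11 ± 0.16, adjusted p = 0.862, limma, and -0.07 without hrLuc replicate 1). The gene overlaps ACO1, the cytosolic aconitase, whose own row stood at 2802, 2466 and 3550 in hrLuc and at 3280, 2823, 3254 and 2221 in S100a1. The table has 6 rows for DDX58, and the row with the fewest counts (NM_213804) was at 582, 291 and 341 in hrLuc and at 253, 349, 419 and 222 in S100a1. In that row hrLuc replicate 1 was the highest of the 7, whereas in the kept row it stood only 1.27 times above replicate 2. The fold changes over the 6 rows ran from -0.36 to -0.11. Whether reads of ACO1 were counted in the DDX58 rows with more counts was not tested.

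The signalling factors had a median of -0.35, and -0.17 without hrLuc replicate 1, with 0 of 3 past the threshold. STAT2, the subunit of the interferon factor that activates transcription, was at 1095, 795 and 969 in hrLuc and at 649, 733, 837 and 861 in S100a1. Only hrLuc replicate 2 lay within the S100a1 values. The fold change of STAT2 was -0.31 ± 0.14 (adjusted p = 0.604, limma), -0.20 without hrLuc replicate 1 and -0.43 without hrLuc replicate 2. STAT2 overlaps IL23A, which was at 49.1 to 102. IRF9, the subunit that binds DNA, was at 920, 570 and 711 in hrLuc and at 485, 515, 707 and 573 in S100a1 (fold change -0.35 ± 0.18, adjusted p = 0.624, limma). IRF7, which amplifies the production of interferon alpha, was at 168, 88.7 and 112 in hrLuc and at 74.3, 95.6, 107 and 90.8 in S100a1 (-0.38 ± 0.23, adjusted p = 0.656, limma). Without hrLuc replicate 1 all 3 stayed negative, at -0.17 for IRF9 and -0.13 for IRF7, and in each S100a1 replicate 1 was the lowest library.

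Among the effectors that bind or degrade RNA, 0 of 7 tested passed and the median was -0.25. This median was 0.05 without hrLuc replicate 1, and 2 of the 7 were still negative. EIF2AK2 (PKR, the kinase that stops translation on double-stranded RNA) was at 2696, 1392 and 1764 in hrLuc and at 1232, 1767, 1906 and 1342 in S100a1. Its fold change was -0.29 ± 0.23 (adjusted p = 0.737, limma) and -0.03 without hrLuc replicate 1. So hrLuc replicates 2 and 3 lay inside the range of the S100a1 libraries. The IFIT proteins bind the ends of foreign RNA. Their genes lie side by side on chromosome 14 in the order IFIT2, IFIT3, IFIT1, from 101193421 to 101249486. All overlap LIPA in the annotation, which was at 2863, 1926 and 2203 in hrLuc and at 1855, 2322, 2305 and 1843 in S100a1. Whether reads of LIPA were counted in the IFIT rows was not tested. IFIT1 was at 924, 546 and 685 in hrLuc and 502 to 744 in S100a1, IFIT3 at 455, 175 and 258 against 184 to 323, and IFIT2 at 379, 243 and 286 against 206 to 394. IFIT2 was highest in S100a1 replicate 2, unlike its 2 neighbours. The fold changes were -0.17 for IFIT1, -0.18 for IFIT3 and -0.13 for IFIT2, and all 3 were positive without hrLuc replicate 1, at 0.02, 0.19 and 0.05. The locus LOC100151816 next to them, described in the table as IFIT5 and looked up after its values were seen, was at 825, 462 and 745 in hrLuc and 435 to 625 in S100a1 (-0.30 ± 0.21, adjusted p = 0.702, limma, and -0.14 without hrLuc replicate 1).

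OAS1 and OAS2 make the 2-5 linked oligoadenylate that activates the nuclease RNase L, and they lie 3385 bases apart on chromosome 14 (OAS2 from 38827667 to 38847697, OAS1 from 38851083 to 38867427). OAS1 had the largest fold change of the 34 members, and its hearts differed widely within both groups. It was at 1764, 393 and 869 normalized counts in hrLuc. In S100a1 it was at 330, 1154, 120 and 305, so the highest S100a1 heart lay above 2 of the 3 luciferase hearts. The means were 1009 ± 696 (SD, n = 3) and 477 ± 461 (SD, n = 4). The fold change was -1.30 ± 0.72 (adjusted p = 0.642, limma), -0.76 without hrLuc replicate 1 and -1.85 without hrLuc replicate 2. OAS2 was at 1974, 987 and 1027 in hrLuc and at 974, 1620, 795 and 995 in S100a1 (-0.25 ± 0.29, adjusted p = 0.818, limma, and 0.07 without hrLuc replicate 1). S100a1 replicate 3, the highest S100a1 library for 24 members, was the lowest of all 7 libraries for these 2 neighbours and for no other member. OAS1 overlaps RPH3A, which was at 79.1 to 159. OASL, a relative that binds RIG-I, had 1.75 to 5.46 normalized counts and was not tested.

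ISG20, an exonuclease that degrades single-stranded RNA, had few reads and the widest hrLuc range, 4.16 on the log2 scale. It was at 65.9, 3.21 and 25.0 in hrLuc and at 18.6, 3.33, 18.1 and 19.2 in S100a1. Thus 1 heart of each group was near 3 normalized counts, which is 3 reads in each of these libraries, while the other 5 were at 18.1 or more. The second ISG20 row in the table showed the same 2 low libraries, at 1.07 and 2.22. The fold change was -0.53 ± 0.97 (adjusted p = 0.892, limma) and 0.40 without hrLuc replicate 1.

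Of the membrane, GTPase and other effectors 0 of 10 passed, with a median of -0.39, and -0.03 without hrLuc replicate 1. BST2 (tetherin, which holds budding virus at the cell surface, chromosome 2, 60305306 to 60308295) had the smallest p of all members. It was at 395, 246 and 310 in hrLuc and at 159, 246, 233 and 227 in S100a1. The means were 317 ± 74.9 (SD, n = 3) and 216 ± 38.7 (SD, n = 4). The groups did not overlap, by a margin of less than 1 normalized count between hrLuc replicate 2 and S100a1 replicate 2. BST2 was the 1 member of 34 with separate groups, where 5.31% of all genes tested were separate and lower in S100a1. Its fold change was -0.54 ± 0.20 (adjusted p = 0.556, limma) and -0.37 without hrLuc replicate 1. RTP4, a chaperone of membrane receptors that interferon induces, was at 1045, 507 and 725 in hrLuc and at 372, 597, 624 and 491 in S100a1 (-0.51 ± 0.25, adjusted p = 0.619, limma, and -0.25 without hrLuc replicate 1). IFI6, a protein of mitochondria and endoplasmic reticulum that limits flavivirus replication, was at 1573, 420 and 972 in hrLuc and at 339, 918, 779 and 353 in S100a1. Its hrLuc replicate 2 lay with the 2 low S100a1 hearts, and its fold change was -0.67 ± 0.49 (adjusted p = 0.714, limma), or -0.24 without hrLuc replicate 1. IFI44L was at 1574, 890 and 1211 in hrLuc and at 827, 1239, 1054 and 1025 in S100a1 (-0.22 ± 0.19, adjusted p = 0.761, limma), and its neighbour IFI44 had a fold change of -0.30. IFI44L was at -0.02 and IFI44 at 0.06 without hrLuc replicate 1.

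The remaining effectors of this role were strongly graded between hearts. MX1, a GTPase that traps viral nucleocapsids, was at 819, 276 and 417 in hrLuc and at 230, 494, 530 and 203 in S100a1. Its neighbour MX2, 21436 bases away on chromosome 13, was at 520, 159 and 282 against 185, 356, 392 and 175. Both genes put the hearts in nearly the same order, with S100a1 replicates 2 and 3 above hrLuc replicate 3 for both. RSAD2 (viperin, which makes a chain-terminating nucleotide) was at 904, 285 and 562 in hrLuc and at 313, 598, 712 and 208 in S100a1. CMPK2, a nucleotide kinase whose gene lies 5585 bases from RSAD2 on chromosome 3, was at 628, 310 and 448 against 270, 369, 474 and 257. The fold changes were -0.45 for MX1, -0.14 for MX2, -0.37 for RSAD2, -0.42 for CMPK2 and -0.30 for XAF1, a partner of the apoptosis inhibitor XIAP. Without hrLuc replicate 1 they were -0.03 for MX1, 0.29 for MX2, 0.03 for RSAD2, -0.17 for CMPK2 and -0.03 for XAF1. XAF1 overlaps FBXO39, which was at 690 to 1029, and C12H17orf100, which was at 602 to 909. In all 10 genes of this role S100a1 replicates 2 and 3 lay above replicates 1 and 4.

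**Figure D4:**
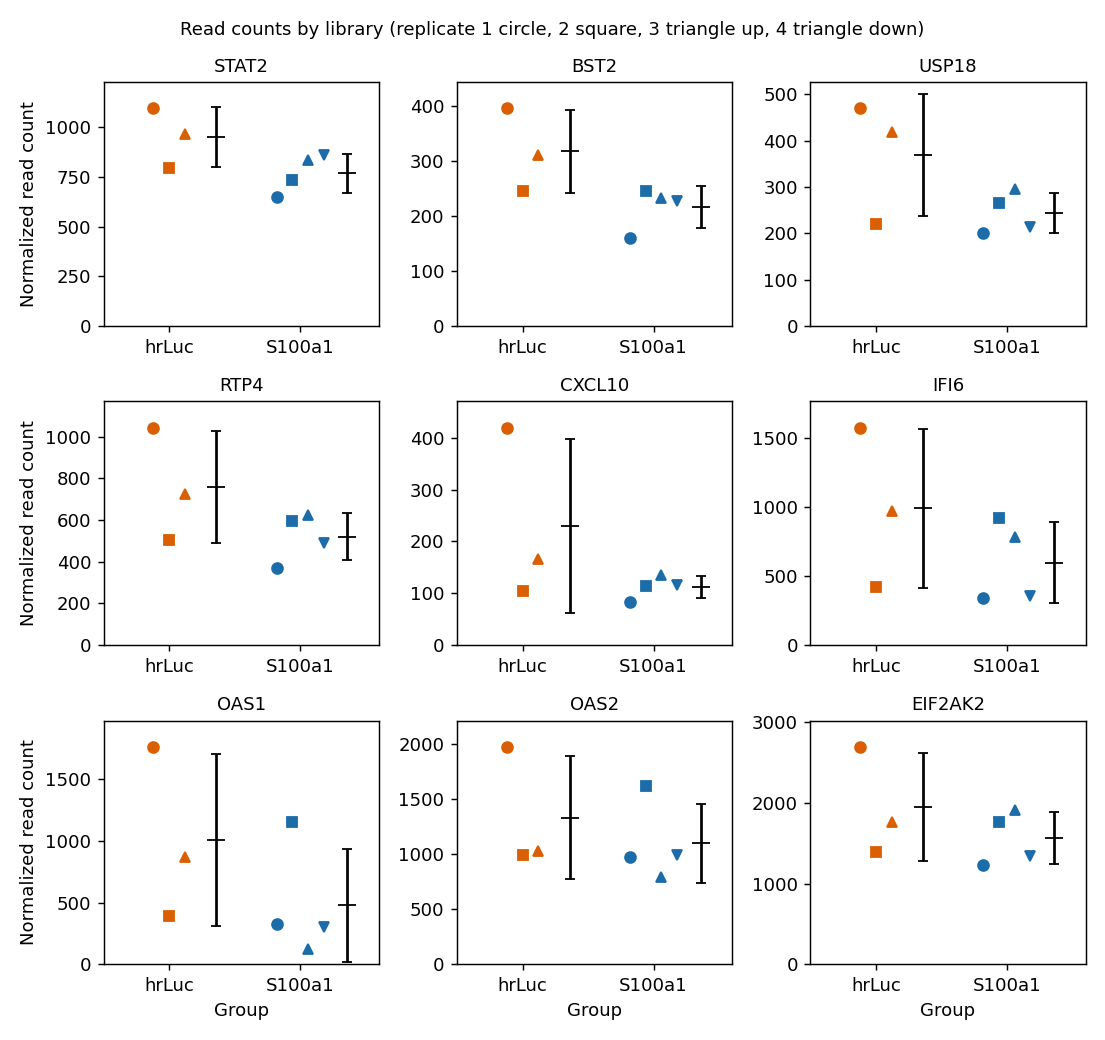
Points are single libraries and the black bars show the mean ± SD of each group (3 hrLuc, 4 S100a1), as normalized read counts on axes that start at 0. The circle of hrLuc replicate 1 is the highest point in all 9 panels, and in 8 of them (all but BST2) a hrLuc library lies within the range of S100a1.

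The ISG15 system, with the ubiquitin ligases and ADP-ribosyltransferases induced beside it, had a median of -0.26 and 0 of 8 past the threshold. The median was 0.0020 without hrLuc replicate 1, and 3 of the 8 were still negative. ISG15 itself (chromosome 6, 63363201 to 63364211) was at 231, 74.8 and 140 in hrLuc and at 71.0, 124, 134 and 72.4 in S100a1. Its fold change was -0.48 ± 0.39 (adjusted p = 0.744, limma) and -0.09 without hrLuc replicate 1. USP18, which removes ISG15 and also restrains the receptor, was at 470, 220 and 419 in hrLuc and at 201, 265, 296 and 215 in S100a1. hrLuc replicates 1 and 3 lay above every S100a1 heart, while hrLuc replicate 2 lay among them. The fold change of USP18 was -0.54 ± 0.26 (adjusted p = 0.613, limma), -0.33 without hrLuc replicate 1 and -0.88 without hrLuc replicate 2. HERC6, a ligase of the ISG15 pathway, was at 2995, 1618 and 1865 in hrLuc and at 1344, 2051, 2371 and 1395 in S100a1 (-0.26 ± 0.25, adjusted p = 0.785, limma, and 0.00049 without hrLuc replicate 1). HERC5, its neighbour, was highest in S100a1 replicate 3, at 383, with 379 in hrLuc replicate 1, and its fold change of -0.16 became 0.05 without the latter.

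TRIM25, the ligase that activates RIG-I, was at 910, 637 and 599 in hrLuc and at 598, 589, 674 and 619 in S100a1. hrLuc replicate 1 was the single high library, since the other 6 lay between 589 and 674, and the fold change of -0.18 ± 0.14 (adjusted p = 0.731, limma) went to 0.0035 without it. PARP14, an ADP-ribosyltransferase, was at 1433, 646 and 912 in hrLuc and at 657, 724, 1096 and 731 in S100a1 (-0.27 ± 0.26, adjusted p = 0.788, limma, and 0.03 without hrLuc replicate 1). DTX3L and PARP9, whose proteins work as a complex, overlap by 395 bases at their ends on chromosome 13, so some of their reads can be shared. DTX3L was at 670, 374 and 440 against 309 to 494 (-0.34), whereas PARP9 was at 590, 455 and 476 against 450 to 559 (-0.04 ± 0.12) and had the fold change nearest to 0 of the 34. DTX3L was at -0.10 and PARP9 at 0.08 without hrLuc replicate 1. The hrLuc range was 0.84 for DTX3L and 0.37 for PARP9.

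CXCL10, the chemokine that draws T cells through CXCR3, was the 1 chemokine among the members. It lies on chromosome 8, 71693641 to 71695948, and overlaps ART3, which was at 4361 to 6283. CXCL10 was at 420, 104 and 166 in hrLuc and at 84.1, 114, 136 and 116 in S100a1. hrLuc replicate 1 stood 4.05 times above replicate 2, and replicate 2 lay within the S100a1 values. The fold change was -0.80 ± 0.41 (adjusted p = 0.626, limma), -0.24 without hrLuc replicate 1 and -1.25 without hrLuc replicate 2. Over all members hrLuc replicate 1 stood a median of 2.01 times above replicate 2, from 1.27 times for DDX58 to 20.5 times for ISG20. It was more than 2 times above it in 18 of 34 members and in 3.43% of all genes tested.

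Ligand genes gave few reads. IFNB1 had 0 reads in all 7 libraries. Over 39 loci described as type I interferons, a set picked by description after the table was seen, summed normalized counts were 231, 266 and 267 in hrLuc and 296, 243, 261 and 207 in S100a1. Of the 39 loci 7 had no read and 6 passed the filter, and the libraries held 219 to 317 reads over all of them. The library with the highest response genes therefore did not have the highest ligand counts. These loci are close paralogs that can share reads, and IFNA1, the 1 tested gene of the fixed ligand list, was at 11.3 to 27.3. IFNG, the type II interferon, was at 8.47 in hrLuc replicate 1 and at 0 to 3.41 in the other 6 libraries.

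The receptor and its kinases did not follow the response genes. Of 10 genes of this list 0 passed, the median was -0.07 (-0.05 without hrLuc replicate 1) and the median hrLuc range was 0.14, against 0.28 for all genes. IFNAR1 was at 1435, 1498 and 1448 in hrLuc and at 1136, 1277, 1352 and 1409 in S100a1 (-0.18 ± 0.08, adjusted p = 0.608, limma, and -0.19 without hrLuc replicate 1), so its groups did not overlap and hrLuc replicate 1 was the lowest of its group. It was the 1 gene of the 10 with separate groups, where 5.31% of all genes tested were separate and lower in S100a1. IFNGR2 and IFNGR1, the interferon gamma receptor, were at -0.23 and -0.10, and at -0.20 and -0.14 without hrLuc replicate 1. The inducing pathway (16 tested, 0 passed) had a median of -0.11, and -0.06 without hrLuc replicate 1. Its members of smallest p were TICAM1, the TLR3 adaptor, at -0.33, TLR8 at -0.45 and TLR7 at -0.56, receptors of single-stranded RNA that overlap in the annotation. TICAM1 was at -0.27, TLR8 at -0.26 and TLR7 at -0.27 without hrLuc replicate 1. The brakes (11 tested, 0 passed) had a median of -0.07 (-0.08 without hrLuc replicate 1), with the phosphatases PTPN6 at -0.40 and PTPN11 at -0.12 and the antibody receptor TRIM21 at -0.30. These were -0.30, -0.17 and -0.11 without hrLuc replicate 1.

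Other interferon-stimulated genes, outside the list of members, showed the same high library with smaller differences. Of 30 tested 0 passed, 26 were negative with a median of -0.20 (-0.06 without hrLuc replicate 1), and hrLuc replicate 1 was the highest of the 7 for 25. The median hrLuc range was 0.53. PARP10 was at 294, 258 and 290 in hrLuc and at 179, 148, 210 and 223 in S100a1 (-0.57 ± 0.16, adjusted p = 0.513, limma), with separate groups and -0.54 without hrLuc replicate 1. Separate groups, lower in S100a1, were found in 2 of the 30 genes, against 5.31% of all genes tested. IFITM3, which blocks virus entry, was at 658, 368 and 687 in hrLuc and 307 to 412 in S100a1 (-0.54 ± 0.22, adjusted p = 0.574, limma, and -0.41 without hrLuc replicate 1), and NT5C3A, a nucleotidase, was higher in S100a1 at 0.21 ± 0.08 (adjusted p = 0.567, limma, and 0.22 without hrLuc replicate 1). Targets of interferon gamma and class I antigen processing (16 tested, 0 passed) had a median of -0.31, and -0.14 without hrLuc replicate 1. Among them CXCL9, a chemokine that interferon gamma induces, was at 138, 20.3 and 51.1 in hrLuc and at 8.74, 26.7, 21.4 and 23.6 in S100a1. Its fold change was -1.48 ± 0.62 (adjusted p = 0.579, limma) and -0.78 without hrLuc replicate 1. TAP1, the peptide transporter, was at -0.45, and NLRC5, the activator of class I genes, at -0.37, and both were at -0.22 without hrLuc replicate 1.

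Summed over each list, T cell, macrophage and B cell markers were, like the response genes, highest in hrLuc replicate 1. They differed from the response genes over the S100a1 libraries. Gene by gene, hrLuc replicate 1 was the highest of the 7 for 11 of 14 T and natural killer cell markers. The same held for 6 of 12 macrophage and 2 of 4 tested B cell markers, against 18.4% of all genes tested. Within the hrLuc libraries alone, replicate 1 was the highest for 12 of 12 macrophage markers, against 32.8% of all genes tested. The summed normalized counts of 14 T and natural killer cell markers were 1792, 963 and 1553 in hrLuc and 862, 903, 1056 and 1093 in S100a1. Among the S100a1 libraries they were thus highest in replicate 4, where the response genes were low, and 1 of 14 had replicates 2 and 3 above replicates 1 and 4. Of the 14, 13 were lower in S100a1, 0 passed, and the median was -0.68 (-0.33 without hrLuc replicate 1). The 12 macrophage and monocyte markers summed to 7322 to 11487 in hrLuc, again highest in replicate 1, and to 6736 to 10484 in S100a1, highest in replicate 2. Their median fold change was 0.01. Without hrLuc replicate 1 it was 0.18, and 2 of the 12 were negative. The 8 B and plasma cell markers, of which 4 were tested, summed to 525 in hrLuc replicate 1 and 219 to 265 in the other 6 libraries. None of the listed markers of these 3 cell types was at 0 in all libraries. Of 8 plasmacytoid dendritic cell markers 5 matched the table, and IL3RA, CLEC4C and LILRA4 matched no symbol, so these interferon producers could not be judged. The 7 neutrophil markers, of which 2 were tested, summed to 78.1, 62.0 and 86.3 in hrLuc, highest in replicate 3, and to 61.2 to 78.2 in S100a1. The 7 endothelial markers summed to 25396 to 29954, with hrLuc replicate 1 at 26294, in the lower part of that range. What part the number of leukocytes has in the level of the response genes was not tested.

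**Figure D5:**
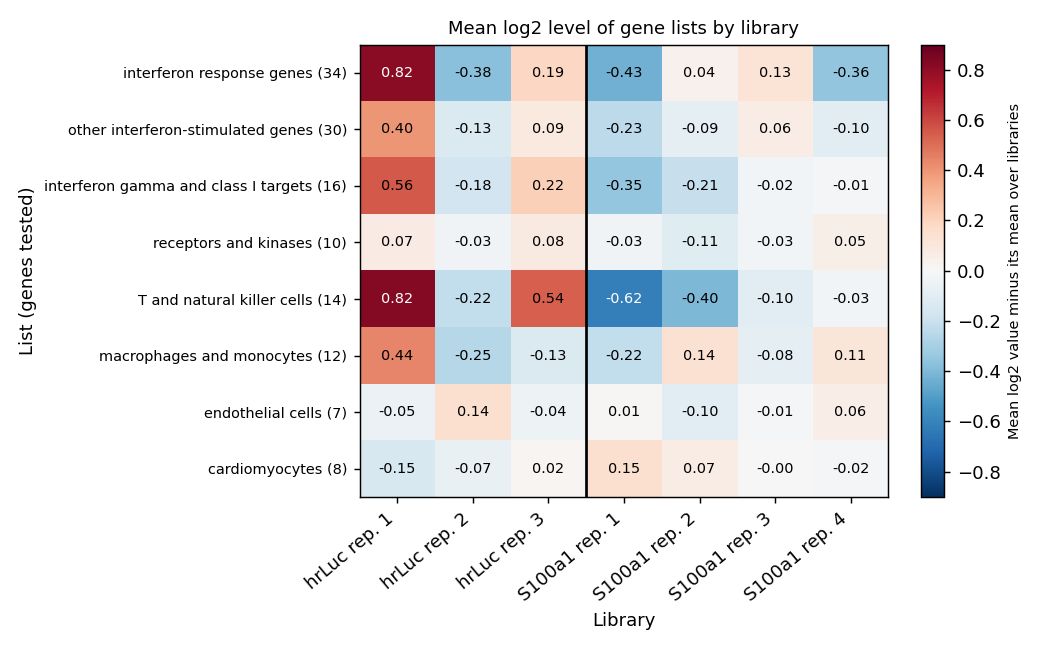
Rows are gene lists with the number of genes tested, columns are the libraries, and each cell prints the mean log2 level of the list minus its mean over the 7 libraries. The interferon response genes and the T and natural killer cell markers both reach 0.82 in hrLuc replicate 1, whereas the receptor and its kinases stay between -0.11 and 0.08.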

How the data were processed

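RNA from 7 pig hearts was sequenced after ribosomal RNA depletion (Qiagen AllPrep, TruSeq RiboZero, per the labels' protocols). The submitters' processing notes name Sscrofa11.1, FastQC 0.11.8, R 4.1.2 and DESeq2 1.33.1. No aligner, counter or strand setting is given in the labels or notes read here. Per transcript and library, the deposited table gives a signal that equals read counts divided by a size factor: 100% of values were whole reads (tolerance 0.01) once multiplied back, 1 read being worth 0.824 to 1.14. It also holds the authors' log2 fold change, their linear fold (ratio) and their adjusted p-value, as deposited.

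From these values 1 row per gene (highest mean) was kept, with a filter of 10 in at least 3 libraries. limma 3.58.1 (R 4.3.3, trend) was fitted to log2(value + 0.5) over 7 libraries without covariates, with Benjamini-Hochberg adjustment over 15652 genes and a threshold of 0.05. It called 2 genes, edgeR 4.0.16 on the recovered reads called 2 and DESeq2 1.42.0 called 90. Scripts were tested on simulated data. Each title names a pig, so p-values measure the spread between these animals. Replicate numbers were not treated as pairs in this fit.

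The members, role lists, pathway lists and cell markers were chosen with earlier results of these data known. Full statistics are given for the 3 tested members of highest mean in each role and the 4 of smallest p, and from each pathway list the 3 non-member genes of smallest p are named. Values for further members in single libraries and the loci matched by description were chosen after their values were seen. Alternatives were other pseudocounts, filters, scalings, transcript rows and tools, the replicate number as a block, and each library left out. Coordinates are from RefSeq on Sscrofa11.1. A promoter search was not run because no sequences were used here.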

Additional observations from a re-analysis of the deposited data

Results flagged for a closer look

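Within the 4 S100a1 libraries the highest and the lowest value of each of the 34 members were set against the rest with Dixon's criterion, and 2 genes had a library far from the others. Chance alone flags about 1 gene in 20, and 2 of 34 is close to that share. ISG20 was at 3.33 normalized counts in S100a1 replicate 2, with a gap to the nearest library of 0.932 of the group's range. PARP14 was at 1096 in S100a1 replicate 3, the high side, with a gap of 0.831 of the range. The 3 hrLuc libraries were not examined with it.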

How the results depend on the processing

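No member passed the threshold of 0.05 under any alternative, and the smallest adjusted p of any member over them was 0.255 (limma, USP18 without hrLuc replicate 2). The number of genes past the threshold was 2, and it was 90 with DESeq2, 1 with median centring and 0 to 3 with 1 library left out. The replicate number as a block gave 0 genes, a member median of -0.23, DDX58 at 0.019 and MX2 at 0.046. Only S100a1 has a replicate 4, so these fold changes equal those of the fit without S100a1 replicate 4. Deviations of same-numbered libraries correlated at -0.022, -0.076 and 0.083, and those of differently numbered libraries at -0.155 to 0.195. With 3 same-numbered pairs, these values cannot decide whether the replicate numbers stand for a pairing. With 1 library left out the members' median ran from -0.57 to -0.03 and their median hrLuc range from 0.49 to 1.01. IFIT2 was at 0.016 in its lowest transcript row, and PARP9 at 0.0074 with median centring and 0.00073 with quantile normalization. All 34 stayed negative with edgeR, DESeq2, pseudocounts of 1 and 5 and no filter.

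Fold changes that turned positive with 1 library left out ran, over these fits, for DDX58 from -0.24 to 0.019, DHX58 from -0.74 to 0.074, DDX60 from -0.88 to 0.041, IFIT1 from -0.36 to 0.023, IFIT2 from -0.30 to 0.049, IFIT3 from -0.50 to 0.19, OAS2 from -0.46 to 0.070, ISG20 from -1.68 to 0.40, MX2 from -0.56 to 0.29, RSAD2 from -0.80 to 0.026, IFI44 from -0.64 to 0.063, HERC5 from -0.36 to 0.050, HERC6 from -0.44 to 0.00049, TRIM25 from -0.30 to 0.0035, PARP9 from -0.11 to 0.075 and PARP14 from -0.54 to 0.034. Without hrLuc replicate 1 there were 15 such genes, without S100a1 replicate 1 there were 3 (IFIT2, MX2, PARP9), without S100a1 replicate 4 there were 2 (DDX58, MX2) and without S100a1 replicate 2 there was 1 (ISG20). The cause was not tested. The count of genes highest in hrLuc replicate 1 has no value without that library. With 3 and 4 hearts and a median standard error of 0.25, member differences of the size seen could not be resolved. ISG20 rests on 3 reads in 2 libraries.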

Other observations

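Genes of the list of interferon gamma targets that had few counts, and did not pass the filter, were also highest in hrLuc replicate 1. IDO1, which degrades tryptophan, was at 24.5 normalized counts there and at 0 to 8.24 in the other 6 libraries. CXCL11, a further CXCR3 ligand, was at 16.0 there and at 1.09 to 5.56 in the others. The 6 fibroblast markers summed to 123274 in hrLuc replicate 1, 108578 and 109586 in the other 2 hrLuc libraries and 69799, 88922, 113208 and 114535 in S100a1. S100a1 replicates 1 and 4, both low in the response genes, had the lowest and the highest of these S100a1 sums. The SD over libraries of the members' mean log2 level was 0.60 in hrLuc and 0.28 in S100a1.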
